A study of Homo sapiens with 40 samples.

Results

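Acetylation of lysine 27 of histone H3 (H3K27ac) was mapped by ChIP-seq in A549 cells with and without SETDB1, and the H3K27ac peaks of the knockout (KO) were compared with those of the control. All H3K27ac peaks on chromosomes 1 to 22 and X of either deposited list were taken, 114648 of the 614484 ChIP-seq peaks of the series on those chromosomes. They comprised 55740 control and 58908 KO peaks, drawn from 4 of the 40 samples (2 libraries per genotype, with 1 peak list for each genotype). A549, the parent of both genotypes, is an established lung adenocarcinoma line. In the KO, SETDB1, a methyltransferase that places trimethylation on lysine 9 of histone H3 (H3K9me3), was disrupted with CRISPR/Cas9 from the PX458 plasmid. The control carries no other description, and whether the KO cells were 1 clone or a pool is not stated in the labels. The same 2 genotypes were profiled for H3K4me3, H3K27me3, H3K9me3 and CTCF, by Hi-C (2 libraries per genotype) and by RNA-seq (3 libraries per genotype).

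H3K27ac is written mainly by the acetyltransferases EP300 and CREBBP and marks nucleosomes beside active promoters and active enhancers. Promoters in use usually also carry H3K4me3, whereas active enhancers carry little of it. Lysine 27 can be acetylated or methylated but not both on 1 histone tail, and H3K27me3 is the mark of Polycomb repression. H3K9me3 covers repeats, clusters of zinc finger genes and other silent chromatin.

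A control peak with no KO peak over it by at least 1 bp was called lost, a KO peak with no control peak was called new, and all others were called kept. In control, 40746 peaks were kept and 14994, or 26.9% (95% Wilson interval 26.5 to 27.3), were lost. In KO, 40447 peaks were kept and 18461, or 31.3% (31.0 to 31.7), were new. Lost peaks held 14.0% of the length of the control list (15.3 Mb beside 93.9 Mb in kept peaks), and new peaks 17.1% of the KO list (20.6 Mb beside 99.6 Mb). With 1 list for each genotype there was no replicate of a peak call, so intervals here and below cover counting error only and no test of genotype was possible. The lists hold positions without heights or read depth, so a peak near the caller's limit in both genotypes could be called in one and missed in the other.

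Lost and new peaks were narrow. The median width was 877 bp (868 to 884) for lost peaks against 1653 bp (1640 to 1667) for kept control peaks, and 959 bp (950 to 968) for new peaks against 1800 bp (1785 to 1813) for kept KO peaks. Of lost peaks 60.4% were under 1 kb, compared with 22.3% of kept control peaks, and of new peaks 53.2%, compared with 18.99% of kept KO peaks. The lost share fell steadily with width in the control list, from 63.2% (61.5 to 64.8) of peaks under 500 bp to 47.1% at 500 to 1000 bp, 24.2% at 1000 to 2000 bp and 6.74% at 2000 to 4000 bp. At 8000 bp or more only 2 of 1085 control peaks were lost (0.184%, 0.0506 to 0.670). New peaks followed the same order in the KO list, with 67.2% (65.5 to 68.8) under 500 bp, 53.8%, 32.1% and 9.90% in the next bands, and 17 of 1190 (1.43%, 0.894 to 2.28) at 8000 bp or more. In each of the 6 bands the new share was above the lost share. Restricting the question to the wider 50% of each list gave a lost share of 10.4% and a new share of 13.1%, whereas requiring a reciprocal overlap of 50% gave 43.6% and 46.7%.

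**Figure D1:**
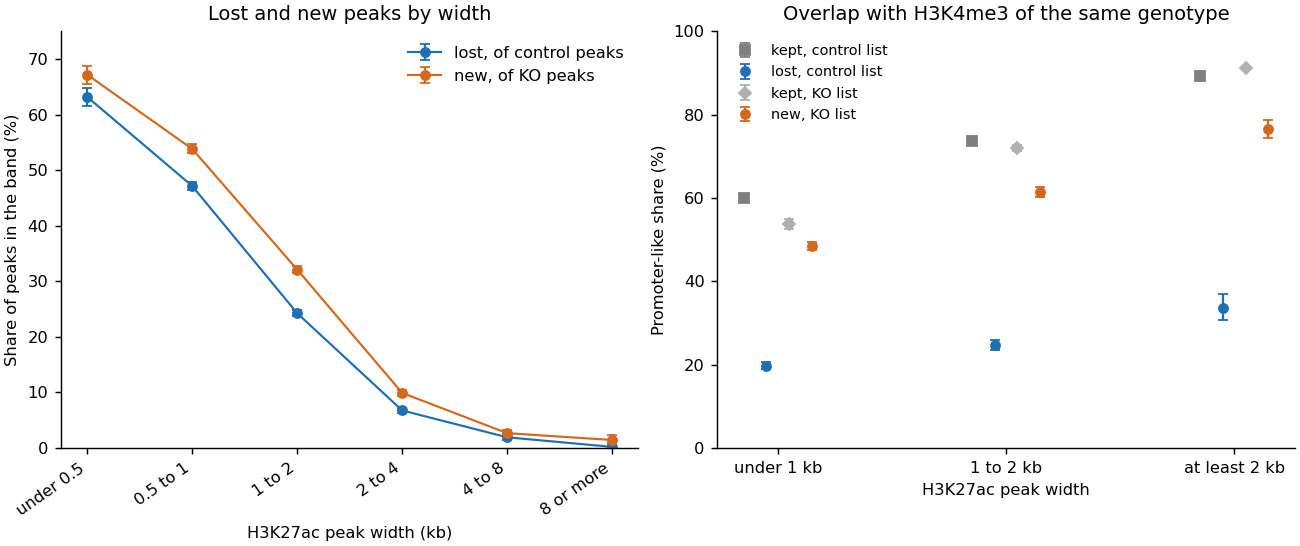
Left: share of control peaks lost (blue) and of KO peaks new (orange), in percent, by peak width in kb. Right: share of H3K27ac peaks that overlapped an H3K4me3 peak of the same genotype, in percent, in 3 width bands for kept, lost and new peaks. Bars are 95% Wilson intervals. Losses and gains fell from over 60% under 500 bp to under 2% at 8000 bp or more, and lost peaks had the lowest promoter-like share in every band, from 19.7% to 33.7%.

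Kept peaks were on the whole slightly wider in KO. Among 33725 kept pairs that overlapped 1 to 1, the median width was 1582 bp in control and 1736 bp in KO, with a median log2 ratio of 0.097, and 60.1% (59.5 to 60.6) were wider in KO. At least 1.5 times wider in KO were 18.2%, and at least 1.5 times narrower 10.6%. A further 2279 control peaks lay over 2 or more KO peaks and 2479 KO peaks over 2 or more control peaks, so splitting and joining were close in number. Peaks of 10 kb or more numbered 679 among kept control and 708 among kept KO peaks, beside 1 lost and 12 new peaks.

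The widest H3K27ac domains were kept. The widest control peak, chr15:67364443-67452220 (hg19), spanned 87778 bp and lay inside the widest KO peak, chr15:67355429-67491749, of 136321 bp, which joined 4 control peaks that together covered 133.1 kb. The next widest control peaks, on chromosomes 15 and 2, spanned 58872 and 58648 bp and lay over 7 and 3 KO peaks covering 54.7 and 58.0 kb of them. The next widest KO peaks, on chromosomes 5 and 9, spanned 71152 and 62107 bp and each joined 2 control peaks. So for these domains the covered length barely differed and the number of pieces did. The 3 widest lost peaks were far smaller, at 11215 bp (chromosome 15), 8182 bp and 7986 bp (both on chromosome 2).

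Loss and gain were each more frequent among distal than among promoter-like peaks, and lost peaks were less often promoter-like than new ones. A peak was called promoter-like where it overlapped an H3K4me3 peak of its own genotype by at least 1 bp, and distal otherwise. Promoter-like peaks made up 76.7% (76.2 to 77.1) of kept control peaks and 76.9% (76.5 to 77.3) of kept KO peaks. The share was 22.2% (21.5 to 22.8) among lost peaks and 55.8% (55.0 to 56.5) among new peaks. Counted the other way, 9.62% of promoter-like but 55.1% of distal control peaks were lost, and 24.9% of promoter-like but 46.6% of distal KO peaks were new. Within peaks under 1 kb the promoter-like share was likewise lowest for lost peaks, at 60.0% for kept control, 19.7% for lost, 53.8% for kept KO and 48.4% for new peaks. At 2000 bp or more it was 89.2%, 33.7%, 91.1% and 76.6%.

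The gain of H3K27ac at promoter-like sites was made of 2 parts of similar size. Of new peaks, 29.3% (28.6 to 29.9) lay over H3K4me3 in both genotypes and 26.5% (25.9 to 27.1) over H3K4me3 in KO only, while 42.7% lay over it in neither and 1.54% in control only. Of kept KO peaks, 3.83% lay over H3K4me3 in KO only. Lost peaks had 13.2% over H3K4me3 in both genotypes, 8.98% in control only, 1.40% in KO only and 76.4% in neither. The KO H3K4me3 list was the longer one, at 69459 peaks against 56854, and its part in the higher overlap was not tested. Taking H3K4me3 of either genotype left 23.6% of lost and 57.3% of new peaks promoter-like. H3K27ac lost at H3K4me3 sites and H3K27ac gained there were therefore unequal in number, at 3325 and 10292 peaks.

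New peaks lay on chromatin that had carried repressive marks in control more often than kept peaks did. By the class rule kept peaks had H3K27ac in control and new peaks did not. Comparisons of control marks between them, here and below, are therefore not independent of that rule. Control H3K9me3 lay under 16.6% (16.1 to 17.2) of new peaks and 12.7% (12.4 to 13.0) of kept KO peaks, and where 50% of the H3K27ac peak had to be covered the shares were 12.9% and 4.22%. KO H3K9me3 lay under 1.08% of new peaks and under fewer kept KO peaks, 0.363%. The KO H3K9me3 list covered 20.5% of chromosomes 1 to 22 and X, against 11.3% in control. For H3K27me3, 3.42% (3.17 to 3.70) of new peaks overlapped the control list and 0.878% (0.753 to 1.02) the KO list, beside 0.447% and 0.260% of kept KO peaks. Of the promoter-like new peaks 5.55% (5.12 to 6.01) overlapped control H3K27me3, and of the distal ones 0.747%. The KO H3K27me3 list was shorter, 67482 peaks against 90822, and its part in the lower overlap in KO was not tested.

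Lost peaks overlapped control H3K9me3 less often than kept ones did, at 5.84% (5.48 to 6.23) against 12.1% of kept control peaks. With 50% of the peak covered the gap was small, at 3.41% and 4.15%. In KO, lost peaks were above kept ones, with KO H3K9me3 under 2.08% (1.86 to 2.32) of lost and 0.339% of kept control peaks, and under 4.39% of the promoter-like lost peaks. Lost peaks had no KO H3K27ac peak by the class rule, so comparisons of KO marks with kept peaks are not independent of that rule. KO H3K27me3 lay under 1.23% (0.910 to 1.67) of the promoter-like lost peaks and 0.137% of the distal ones, against 0.1504% and 0.0428% for control H3K27me3. Most lost peaks thus overlapped neither mark in KO. CTCF, which binds insulators and TAD boundaries, was under fewer changed than kept peaks by the 1 bp rule, with the control list under 3.64% of lost and 6.52% of kept peaks and the KO list under 4.83% (4.53 to 5.15) of new peaks and a higher share of kept peaks (11.7 to 12.3%). Among promoter-like peaks alone the control list lay under 7.16% (6.33 to 8.08) of lost and 7.40% (7.11 to 7.69) of kept peaks, whose intervals overlap. With 50% of the peak covered the order was the opposite, at 0.207% of lost and 0.120% of kept peaks on the control list. The 23875 control CTCF peaks covered only 6.43 Mb, so mainly narrow H3K27ac peaks can reach 50% cover, and lost peaks were narrower than kept ones. Neither order was separated from peak width.

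Around the peak midpoints the difference reached well beyond the peaks. At 10 kb from the midpoint control H3K9me3 was present beside 12.4% of new, 8.68% of kept and 7.01% of lost peaks, and control H3K27me3 beside 5.47%, 2.36% and 1.95%. At the midpoint itself control H3K9me3 dipped to 4.09% at kept and 3.43% at lost peaks, which both had H3K27ac in control. It stood at 12.9% at new peaks, which had none in control. In KO, H3K9me3 was at 0.845% at the midpoints of new, 0.164% of kept and 1.92% of lost peaks. Any KO H3K27me3 within 10 kb was found for 15.6% of new, 11.3% of kept KO and 7.74% of lost peaks, so new peaks still had more Polycomb chromatin nearby than the others.

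**Figure D2:**
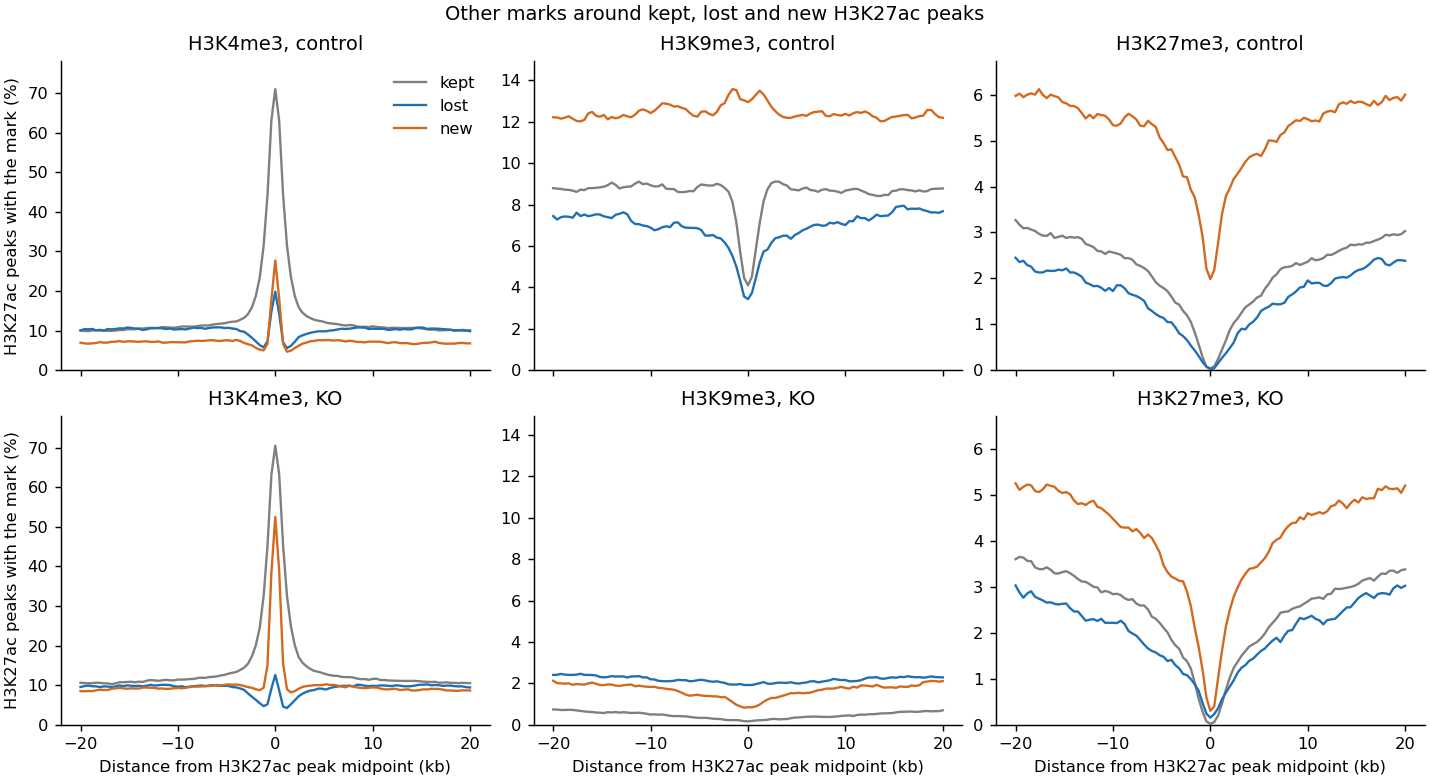
Share of kept (grey), lost (blue) and new (orange) H3K27ac peaks, in percent, that had the named mark at each distance in kb from the peak midpoint, in control (top) and KO (bottom). The vertical scale is the same in both genotypes for each mark. H3K4me3 at new peaks rose from 27.7% in control to 52.5% in KO at the midpoint, and control H3K9me3 stood at 12.9% at the midpoint and 12.4% at 10 kb for new peaks while it dipped to 4.09% and 3.43% at the midpoints of kept and lost ones.

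The Hi-C compartments of the bins differed between lost and new peaks. Compartment A is the gene-rich, active part of the genome and B the inactive part. Each 100 kb bin was called A where the deposited compartment score was positive and B where it was negative, an orientation in which H3K4me3 peaks were denser in A in 46 of 46 chromosome and genotype pairs. Among 26496 bins with a score, 13064 were A in both genotypes, 10308 B in both, 1573 A in control and B in KO, and 1551 B in control and A in KO. Both genotypes had most H3K27ac in constant A bins, with 87.7% of lost, 73.1% of new and 87.7% of kept KO peaks there.

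Bins that moved from B to A had the highest new share. Of the 2420 KO peaks in them 68.4% (66.5 to 70.3) were new, and of the 955 control peaks 16.1% (13.9 to 18.6) were lost. Mean density in these bins was 0.616 control and 1.56 KO peaks per bin. In bins that moved from A to B, 33.6% (31.6 to 35.8) of 1942 control peaks were lost and 28.6% (26.6 to 30.7) of 1819 KO peaks were new, at 1.23 and 1.16 peaks per bin. Constant A bins held 3.74 control and 3.75 KO peaks per bin, with 26.9% (26.5 to 27.3) lost and 27.6% (27.2 to 28.0) new. The lost share in B-to-A bins depended on the overlap rule and was 42.0% with a reciprocal overlap of 50%, level with the other bins, whereas the new share there was then 77.1% and was still the highest of the 4 kinds.

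Gain was not limited to bins that changed compartment. In bins that stayed B, 54.9% (53.3 to 56.4) of 3944 KO peaks were new against 28.7% (27.01 to 30.6) lost of 2501 control peaks, and these bins held 11.7% of all new but 4.40% of kept KO peaks. Promoter-like shares of new peaks were 77.4% in B-to-A, 74.6% in constant B and 50.2% in constant A bins, each below that of the kept KO peaks of the same bins, 85.2%, 84.6% and 76.0%. Control H3K9me3 lay under 33.8% (31.6 to 36.1) of new peaks in B-to-A bins, 24.3% (22.5 to 26.1) in constant B bins and 12.6% (12.1 to 13.2) in constant A bins, beside 35.3% (32.0 to 38.8), 20.2% (18.4 to 22.1) and 11.8% (11.5 to 12.2) of kept KO peaks there. In B-to-A bins new peaks were thus not above kept ones. Control H3K27me3 lay under 7.07%, 11.7% and 1.64% of new and 2.75%, 2.30% and 0.288% of kept KO peaks in the same order. Lost peaks of constant B bins overlapped KO H3K9me3 in 28.9% (25.7 to 32.4) and those of A-to-B bins in 13.9% (11.5 to 16.8). Kept control peaks there did so in 3.76% and 1.09%. Control H3K9me3 already lay under 16.3% (13.8 to 19.1) and 10.9% (8.71 to 13.5) of the same lost peaks, and in A-to-B bins the intervals of the 2 genotypes overlap.

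**Figure D3:**
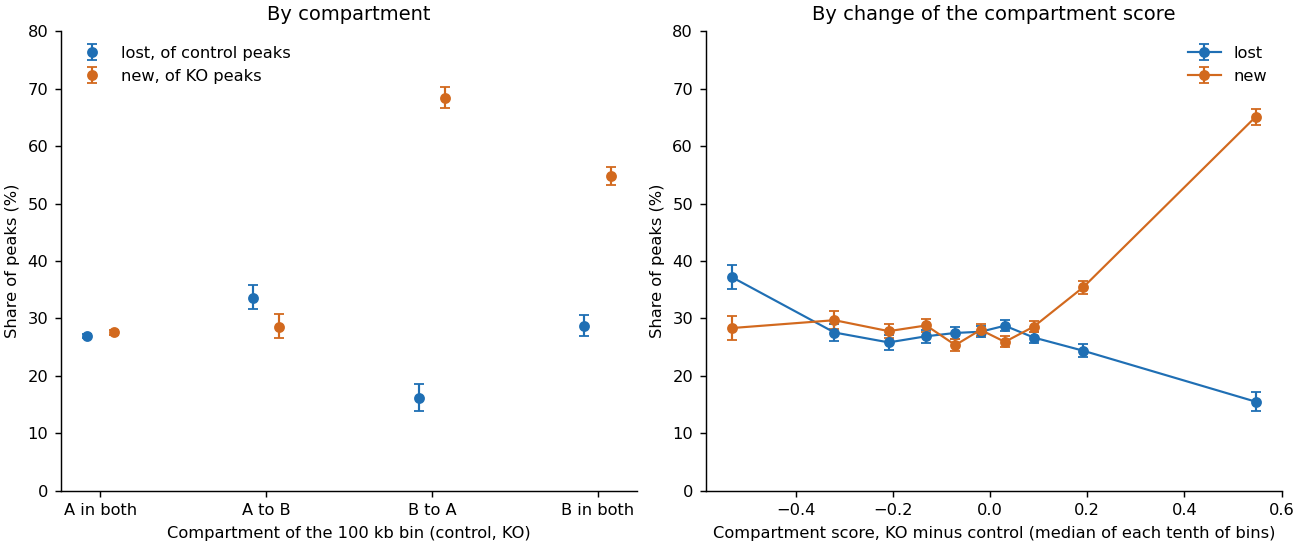
Left: share of control peaks lost (blue) and of KO peaks new (orange), in percent, by compartment of the bin in control and KO. Right: the same shares for 10 equal groups of bins ordered by the change of the compartment score (KO minus control, in score units), plotted at the median of each group. Bars are 95% Wilson intervals. Both shares stayed between 25.4% and 29.7% over the second to eighth groups and parted at the ends, with 65.1% new in the group with the largest rise and 37.2% lost in the group with the largest fall.

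Ordered by the change of the score itself, the second to eighth of 10 equal groups of bins had similar shares. In the tenth of bins with the largest fall (median KO minus control -0.53) 37.2% (35.1 to 39.3) of control peaks were lost and 28.3% of KO peaks were new, at 0.886 KO peaks per control peak. In the tenth with the largest rise (median 0.55) 15.5% (13.9 to 17.3) were lost and 65.1% (63.6 to 66.5) were new, at 2.33 KO peaks per control peak. The ninth group also had more new peaks, 35.4% (34.3 to 36.6), with 24.4% lost and 1.15 KO peaks per control peak. The fifth to eighth groups had 0.960 to 1.02 KO peaks per control peak.

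Hi-C replicates allowed a test of the score, which is independent of the peak calls. By limma over all 26496 bins, 21.6% were called higher and 37.3% lower in KO (Benjamini-Hochberg adjusted p under 0.05), so the scores shifted downward in general. Of 1295 bins with a net gain of at least 3 H3K27ac peaks, 513 (39.6%, 37.0 to 42.3) were called higher and 233 (17.99%) lower. Their median score went from 0.523 and 0.509 in the control replicates to 0.609 and 0.604 in the KO replicates. Of 1132 bins with a net loss of at least 3 peaks, 263 (23.2%, 20.9 to 25.8) were called lower and 141 (12.5%) higher, both below the shares over all bins. Their median score was 0.786 and 0.775 in the control replicates and 0.772 and 0.765 in the KO replicates. Bins with peaks but no net change were called lower in 36.4% and higher in 17.7% of 4416 cases. Bins without an H3K27ac peak in either genotype were called lower in 48.5% and higher in 18.3% of 10503 cases. Net gain therefore went with a higher share of rises than over all bins or in bins with peaks but no net change. Net loss did not go with a higher share of falls than in either. Without 1 KO replicate the shares for net-gain bins called higher were 33.1% and 33.7%.

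Lost and new peaks each lay next to their own kind along the genome. Peaks of both lists were put in 1 order, with overlapping kept peaks joined, which gave 71301 loci. A new locus was followed by a new one in 39.5% (38.8 to 40.2) of cases, although new loci were 25.9% of all, and a lost locus by a lost one in 34.0% (33.2 to 34.8), although lost loci were 21.0%. Kept loci were followed by kept ones in 56.7%, close to their 53.1% share. Another new peak lay within 10 kb of 36.8% of new, 27.9% of kept and 20.2% of lost loci. Another lost peak lay within 10 kb of 45.3% of lost, 28.4% of kept and 15.5% of new loci. Lost peaks were thus the more tightly packed, with a median distance to the nearest other lost peak of 12.7 kb against 18.6 kb among new peaks.

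New peaks formed the longer runs. Runs of at least 5 consecutive loci of 1 class numbered 388 for new and 210 for lost peaks, and runs of at least 10 numbered 56 and 25. Runs of at least 5 held 16.4% of new and 9.44% of lost loci. New loci were also more numerous, at 18461 against 14994, which by itself gives more and longer runs. What part of the difference follows from their number was not tested. In 1 Mb windows, 1633 of the 2664 with any peak had a net gain and 817 a net loss, with gains of 10 or more in 223 and losses of 10 or more in 194. Windows with at least 5 KO peaks had at least 80% of them new in 122 cases (5.39%), whereas windows with at least 5 control peaks had at least 80% of them lost in 9 cases (0.445%). The 10% of windows with most lost peaks held 38.8% of all lost peaks and 28.4% of all control peaks. The 10% with most new peaks held 28.0% of new and 22.5% of all KO peaks. Windows were ranked by the lost or new peaks themselves, which favours a larger share of those than of all peaks, so these gaps do not measure clustering.

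The longest run of new peaks lay on chromosome 8, chr8:111864932-117457457 (hg19), a stretch of 5593 kb with 59 KO peaks and no control peak. Of these 59 peaks 52 overlapped KO H3K4me3, the widest was 3907 bp, and together they covered 82.9 kb. All 57 scored bins of the stretch were called higher by limma, and the mean score went from -0.94 and -0.93 in the control replicates to 0.17 and 0.19 in the KO replicates, a move from B to A. H3K9me3 covered 22.9% of the stretch in control and 8.13% in KO, and H3K27me3 1.02% and 6.99%.

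The next 2 runs lay on chromosome 19, which carries large clusters of zinc finger genes that are known targets of SETDB1. In chr19:19906603-20646363, 46 new peaks covered 74.5 kb of 739.8 kb, 38 of them over KO H3K4me3, while H3K9me3 cover went from 50.7% to 0.713%. In chr19:23436255-23866896, 44 new peaks covered 166.7 kb of 430.6 kb, 36 of them over KO H3K4me3, while H3K9me3 cover went from 89.6% to 1.05%. The second of these runs also held 2 of the 3 widest new peaks of the genome, at 27471 and 17351 bp, where control H3K9me3 covered 93.1% and 100% of the peak. The third, of 18563 bp at chr19:56878466-56897028, was covered by H3K9me3 over 100% of its length in control and 0% in KO. Each of the 3 peaks overlapped KO H3K4me3. All 5 scored bins of the 44-peak run were called higher, from -0.92 and -0.99 in control to -0.15 and -0.16 in KO, and so remained negative.

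The 3 windows of 1 Mb with the largest net gain were all on chromosome 19. Counted by midpoint, chr19:23000001-24000000 held 2 control and 72 KO peaks, chr19:20000001-21000000 held 1 and 54, and chr19:37000001-38000000 held 12 and 62. No control peak of these windows was lost. H3K9me3 cover in the last of these went from 93.3% to 0%, and its mean score from -1.37 and -1.51 to 0.13 in both KO replicates, with 10 of 10 bins called higher. In the first of these H3K27me3 cover went from 0.119% to 11.4%, so in part of this window the Polycomb mark was found in KO where H3K9me3 had been in control.

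Lost runs were shorter and lay in A compartment. The longest, chr7:107897188-108047424, held 19 lost peaks in 150.2 kb, 10 of them over control H3K4me3, with 26.5 kb covered in control and no KO peak. H3K27me3 cover there went from 0% to 18.9% and H3K9me3 cover from 10.7% to 0%. The 3 scored bins were called lower, from 0.61 and 0.55 to 0.30 and 0.34. In chr2:121525122-121614698, 18 lost peaks covered 44.6 kb of 89.6 kb, 1 of them over control H3K4me3, with no H3K27me3 in either genotype, and 1 of 2 bins was called higher. In chr9:119008489-119083223, 18 lost peaks covered 29.9 kb of 74.7 kb, 1 of them over H3K4me3, again with no H3K27me3, and its 1 bin was not called in either direction. The last 2 thus lost nearly all-distal H3K27ac with no H3K27me3 in either genotype and no bin called lower. H3K9me3 cover went from 2.58% to 0% in the chromosome 2 run and from 9.95% to 0% in the chromosome 9 run. The control H3K9me3 list covered 11.3% of chromosomes 1 to 22 and X. Chromosome 2 as a whole lost 37.5% of its control peaks, the highest share of any chromosome, and its run was not separated from that difference.

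The 3 windows with the largest net loss kept part of their peaks. In chr2:121000001-122000000, 52 of 68 control peaks were lost, beside 37.5% over all of chromosome 2, and 2 of 20 KO peaks were new. In chr8:32000001-33000000, 43 of 72 were lost and 1 of 39 was new, and in chr9:116000001-117000000, 44 of 86 were lost and 2 of 43 were new. The mean scores of these windows lay between 0.55 and 1.17 in all replicates, with at most 3 of 10 bins called in any direction.

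**Figure D4:**
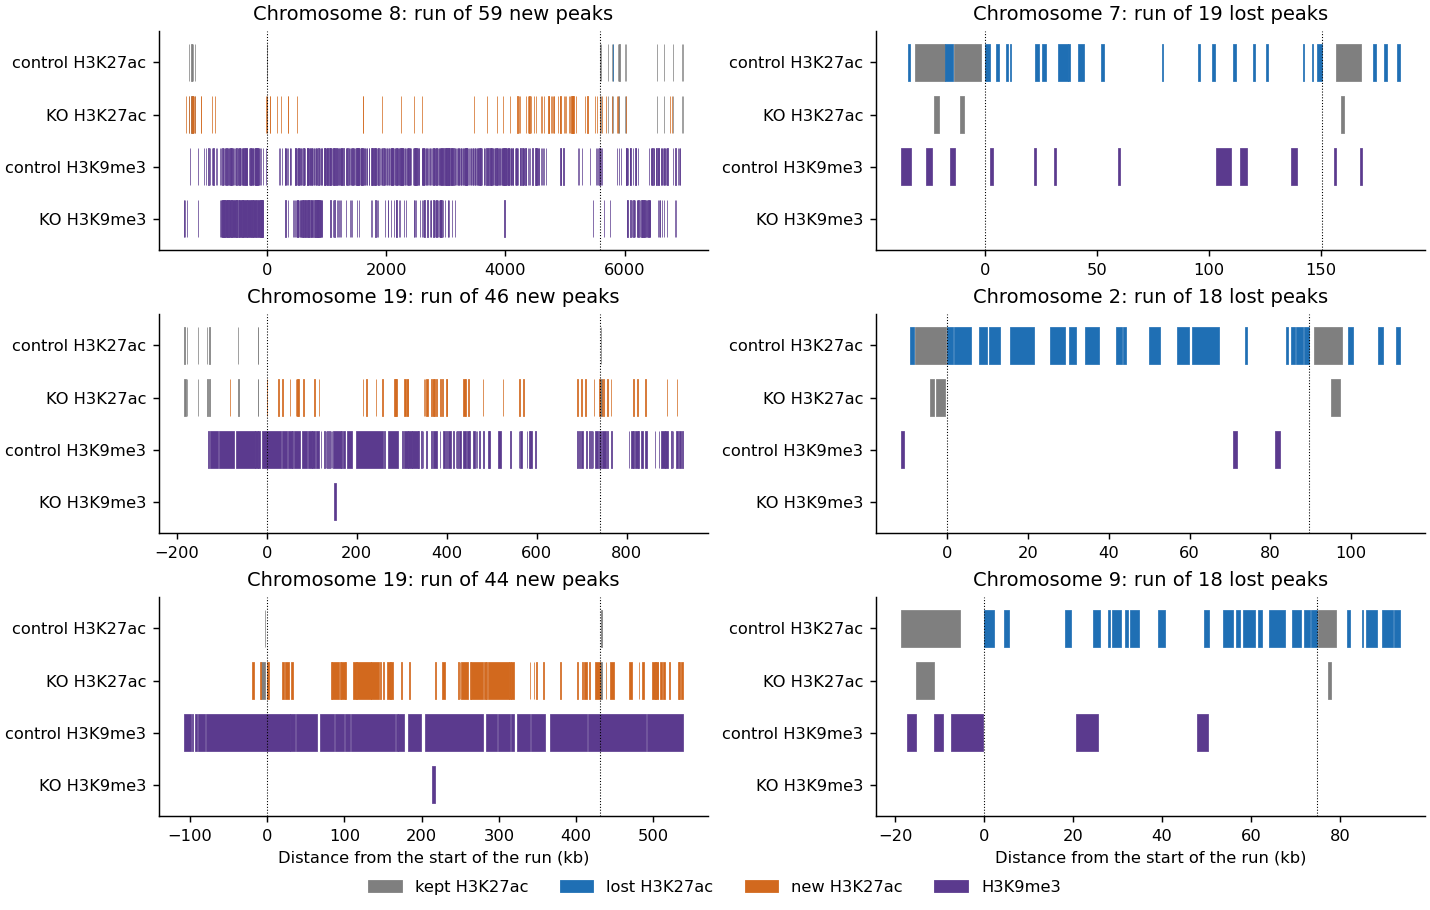
The 3 longest runs of new peaks (left) and of lost peaks (right), with H3K27ac and H3K9me3 peaks of each genotype drawn against the distance in kb from the start of the run (dotted lines mark its ends). Grey, blue and orange are kept, lost and new H3K27ac peaks and purple is H3K9me3. In the left panels KO H3K27ac peaks lie in stretches of which control H3K9me3 covered 22.9 to 89.6%. In the right panels the KO H3K27ac row is empty between the dotted lines. H3K9me3 covered 2.58 to 10.7% of these stretches in control and 0% in KO.

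RNA of zinc finger genes was compared because of these regions, a choice made after the peaks were seen. Of 267 tested genes on chromosome 19 with a ZNF symbol, 244 (91.4%) were higher and 4 (1.5%) lower in KO by edgeR's quasi-likelihood test (Benjamini-Hochberg adjusted p under 0.05), with a median log2 fold change of 1.83, beside 32.8% higher and 30.0% lower over all 17767 genes tested. Of 265 ZNF genes on other chromosomes 50.6% were higher and 14.3% lower, with a median of 0.21, and of the other 870 genes of chromosome 19 48.9% were higher and 14.1% lower, with a median of 0.20. ZNF850 had the largest change among those with at least 1 CPM (counts scaled to library size) in control, at 1.49, 1.49 and 2.10 CPM in control and 111, 111 and 111 CPM in KO (log2 fold change 5.99, SE 0.0838). ZNF813 went from 1.44 to 1.93 CPM in control to 38.2 to 42.9 CPM in KO, and ZNF841 from 3.04 to 3.53 to 66.7 to 70.6 CPM. These genes have close paralogs, so reads may be split among family members. Peaks were not assigned to genes, so which peak belongs to which gene is not shown here.

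Chromosomes differed in their balance of loss and gain. Chromosome 2 had the highest lost share, 37.5% (36.1 to 38.8), with 4990 control and 4319 KO peaks, and a new share of 25.4%. Chromosomes 17 and 15 came next in loss, at 32.3% and 32.1%. Chromosome 4 had the highest new share, 42.2% (40.4 to 44.1), with 1921 control and 2683 KO peaks, followed by chromosomes 13 (39.2%) and 12 (38.9%). Over the 23 chromosomes the lost and new shares went in opposite directions (Pearson's r -0.69, Spearman's rho -0.72), and the KO to control ratios of H3K27ac and H3K4me3 peak numbers went together (r 0.77, rho 0.76), both across chromosomes that share the same libraries. In RNA, the 1049 tested genes of chromosome 2 had a median log2 difference of -0.54, the 854 of chromosome 12 one of 0.37 and the 1137 of chromosome 19 one of 0.34, while the medians of the other chromosomes lay between -0.09 and 0.08. Over the 23 chromosomes the H3K27ac peak ratio and the gene median had r 0.31 and rho -0.05, and without chromosomes 2 and 12 r -0.10 and rho -0.30. Without chromosomes 2 and 12 the lost share was 26.1% and the new share 31.3%.

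SETDB1 RNA was lower in every KO library. It stood at 37.5, 39.6 and 38.8 CPM in control and 23.4, 21.2 and 21.1 CPM in KO, without overlap, and the fitted log2 difference was -0.82 (SE 0.0598; adjusted p by edgeR 1.7e-12). The transcript was thus still present, and RNA does not measure the protein. The labels do not say that the libraries came from separate cultures, so p-values measure the spread among these libraries, which may be technical.

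Both main writers of the mark rose slightly. EP300 was at 80.2, 80.7 and 74.4 CPM in control and 93.4, 86.5 and 78.7 CPM in KO, with overlapping groups, and changed by 0.14 on the log2 scale (SE 0.0546, edgeR adjusted p 0.029). CREBBP was at 56.2, 52.9 and 52.7 CPM and at 64.3, 66.4 and 62.1 CPM, without overlap (log2 0.26, SE 0.0498, edgeR adjusted p 6.5e-05). The rise of EP300 was lost with upper quartile scaling (adjusted p 0.11) and without 1 of 3 libraries (adjusted p 0.07 to 0.17 without control replicate 3, KO replicate 1 or KO replicate 2). Of 7 other lysine acetyltransferases 3 rose, 0 fell and 4 did not pass, the 3 being KAT2A (0.17), KAT2B (0.14) and KAT7 (0.13), all small. Each was lost in at least 1 alternative, KAT2A without KO replicate 2 (adjusted p 0.08), KAT7 with upper quartile scaling (0.083) and without control replicate 3 or KO replicate 3 (0.15 and 0.09), and KAT2B with upper quartile scaling (0.12), with DESeq2 (0.11) and without each library in turn except control replicate 1 (0.056 to 0.2).

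Of 16 deacetylases 5 rose, 5 fell and 6 did not pass, close to the 32.8% higher and 30.0% lower over all genes tested, against which the counts of the other lists should also be read. SIRT2, a deacetylase found mostly in the cytoplasm, went from 28.4 to 31.4 CPM to 50.03 to 54.6 CPM (log2 0.82), and HDAC11 rose by 0.65. HDAC4, a class IIa deacetylase, went from 28.5 to 33.5 CPM to 19.2 to 21.3 CPM (log2 -0.65). Of 14 co-repressor genes 6 rose, 3 fell and 5 did not pass. CHD3, a remodelling subunit of NuRD, rose by 0.73 on the log2 scale. RCOR2, a CoREST subunit of low expression here, went from 1.65 to 1.78 CPM to 0.713 to 0.786 CPM (log2 -1.20).

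Of 9 tested acetyl readers 2 rose and 7 did not pass: SMARCA2, a catalytic subunit of BAF remodelling complexes, went from 45.1 to 49.7 CPM to 78.8 to 86.4 CPM (log2 0.79), and BRD2 rose by 0.40. BRDT, a testis gene, was too low to test. Of 9 genes of enhancer H3K4 methylation 5 rose, 2 fell and 2 did not pass, with KDM5B (0.42), a demethylase of H3K4me3, at the top and PAXIP1 (-0.34) and KDM1A (-0.32) at the bottom. Of 5 acetyl-CoA supply genes 2 rose, 2 fell and 1 did not pass. SLC25A1, the mitochondrial citrate carrier, rose by 0.73 on the log2 scale and ACSS2, which makes acetyl-CoA from acetate, by 0.65. ACLY, which makes acetyl-CoA from citrate, fell by 0.16.

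Of 15 tested AP-1 and TEAD genes, whose products bind many enhancers of epithelial lines, 6 rose, 5 fell and 4 did not pass. JUND went from 20.8 to 29.8 CPM to 45.8 to 62.5 CPM (log2 1.12, SE 0.189), BATF3 from 5.32 to 6.02 CPM to 2.81 to 3.49 CPM (log2 -0.81) and FOSL1 from 13.9 to 15.1 CPM to 7.64 to 9.40 CPM (log2 -0.77). Over the 8 lists, 31 of 77 tested genes rose and 17 fell, beside 32.8% higher and 30.0% lower over all genes, and the median log2 fold change was 0.06 against 0.0038. With upper quartile scaling the counts were 23 and 20. In bulk RNA, fewer cells that express a gene and less RNA per cell cannot be told apart.

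**Figure D5:**
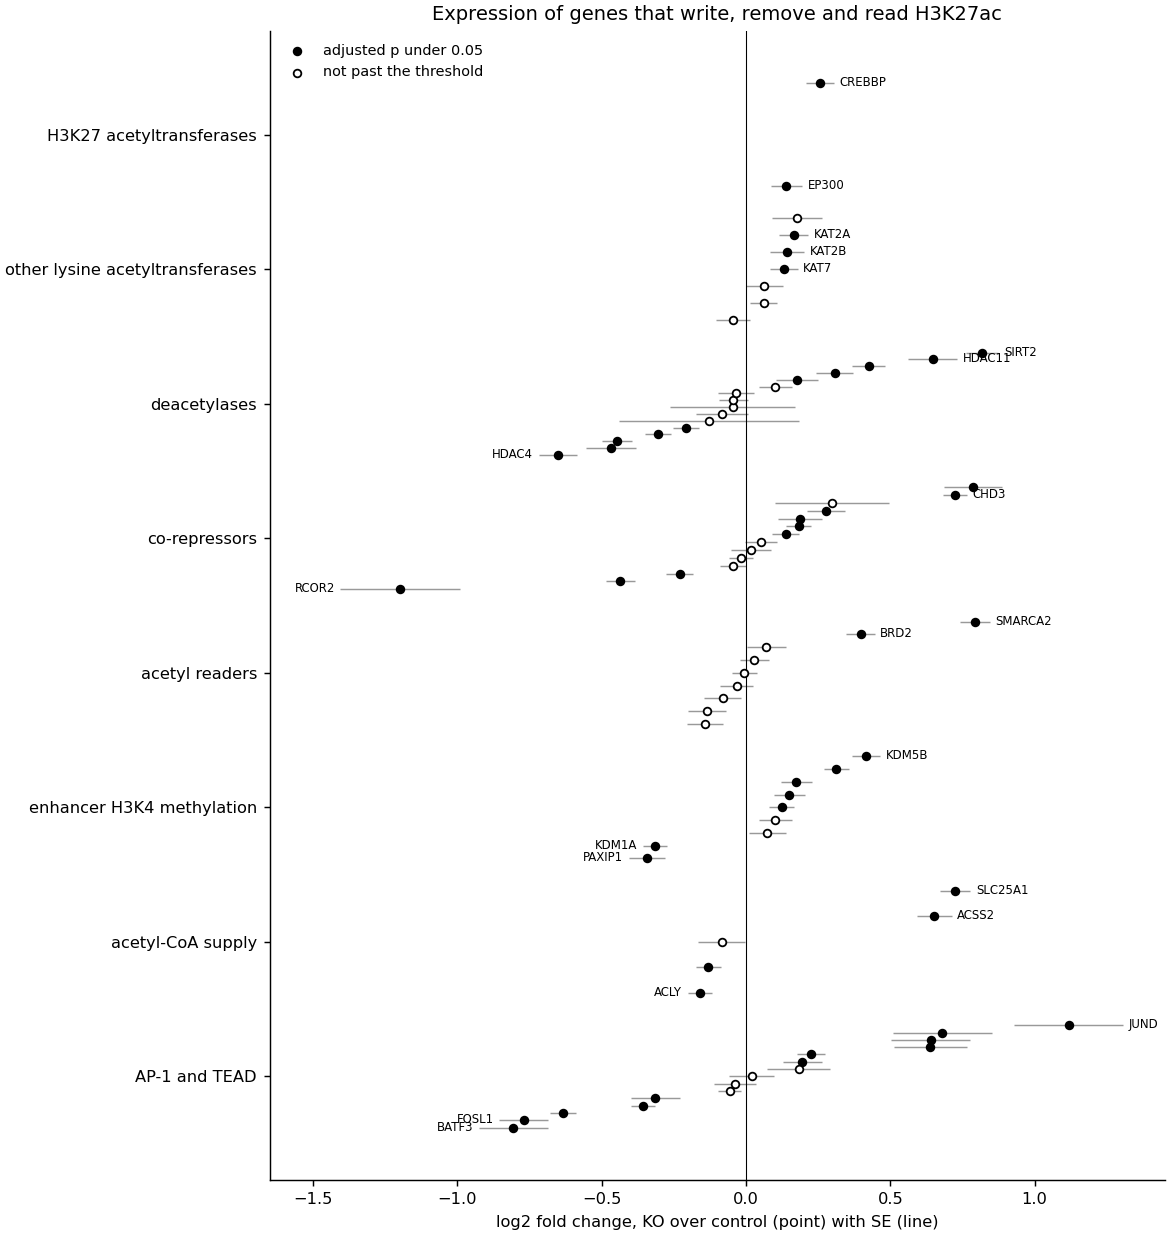
log2 fold change of KO over control with its SE for the 77 tested genes of 8 lists, 1 point per gene. Filled points passed an edgeR adjusted p of 0.05 and open points did not, and most of the called genes with the 3 largest changes of each list are named. Deacetylases, co-repressors, enhancer methylation genes, acetyl-CoA genes and AP-1 and TEAD genes lie on both sides of 0.

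The RNA libraries held 18065062 to 48364919 counts. RNA of epithelial markers was present in both genotypes and higher in KO. All 6 rose, from KRT7 (log2 0.10) to KRT19 (log2 2.49), and their summed level was 4460 to 4880 CPM in control and 10800 to 11600 CPM in KO. The rise of the sum lay mostly in KRT8, the most abundant (mean 2271 CPM in control and 6594 CPM in KO), and KRT18 (779 and 2583 CPM). Of 6 genes typical of A549 4 fell and 2 rose, at a summed 18200 to 18800 CPM and 16500 to 16700 CPM. Markers of other cell types were near 0, with summed levels of at most 0.548 CPM for immune, 5.30 CPM for fibroblast and 5.28 CPM for endothelial genes, the last resting on CDH5, which went from 0.212 to 0.378 CPM to 3.80 to 5.11 CPM. Of the 6 fibroblast genes 2 were tested and both rose, COL1A1 by 0.30 and COL3A1 by 1.42 on the log2 scale. The part of these markers in the peak shares was not tested.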

How the data were processed

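H3K27ac peaks were taken as the authors deposited them, as 1 list per genotype of positions on hg19 with no score, with 2 libraries per genotype and MNase-fragmented chromatin per the labels' protocols. Whether reads were pooled before peak calling is not given in the sources used here. The submitters' processing notes name STAR 2.6.1c, edgeR 3.30.0, Bowtie2 2.2.3, SAMtools 1.5, Picard and MACS2 without saying which step each served. Peaks called separately in each list make loss and gain sensitive to depth and threshold. The KO H3K4me3 libraries were grouped by their description, because their titles misspell the mark.

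RNA values are raw counts per gene deposited by the authors, and 93.8% of 62486 gene IDs matched a symbol. The compartment score is a signed value per 100 kb bin deposited by the authors, and its method is not given in the sources used here. Gene chromosomes came from RefSeq.

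Overlaps were computed with numpy 2.4.6 and pandas 2.3.3, and Wilson intervals are at 95%. edgeR 4.0.16 (TMM, filterByExpr, robust quasi-likelihood, 3 libraries per genotype, 17767 genes) and limma 3.58.1 (4 Hi-C columns, 26496 bins) were used at an adjusted p of 0.05; DESeq2 1.42.0 was an alternative. On simulated data with 200 genes changed 2-fold, edgeR recovered 93% of them, and 6.06% was the false share, among 17631 genes. Replicate numbers were not used to pair the libraries in the main fits. The genes named are EP300, CREBBP and, in each list, the called genes with the 3 largest changes, of which 1 is not reported here; regions named are the 3 longest runs, the 3 widest peaks of each class and the 3 windows with the largest net change. Members, lists and tests were chosen with earlier results of these data known. Alternatives tried are given in the closing section. No genome or gene annotation of hg19 was used, so peaks carry no gene names or sequence.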

Additional observations from a re-analysis of the deposited data

How the results depend on the processing

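The peak lists hold no heights and 1 list per genotype, so depth cannot be weighed for a peak and no replicate of a loss or gain exists. Of 132 alternative values for peaks and bins 59 stayed within the main value's interval and 73 moved; of 253 for named genes 238 kept their call and 15 lost it, with 0 reversed, and all 22 for the gene counts stayed within 1.5 times.

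A reciprocal overlap of 50% gave 43.6% lost and 46.7% new, promoter-like shares of 81.3% (kept control), 37.1% (lost), 80.8% (kept KO) and 58.2% (new), and median widths of 1741, 985, 1853 and 1077 bp. Lost and new shares were then 43.9% and 44.0% in constant A, 44.5% and 40.6% in A-to-B, 42.0% and 77.1% in B-to-A and 42.4% and 63.5% in constant B bins, so the low lost share of B-to-A bins did not hold. Same-class neighbours were 32.8% (lost) and 36.9% (new), and the top windows held 36.3% and 28.7%. Both classes were larger under this rule and their shares of all loci were not computed, so an excess of same-class neighbours is not shown for it.

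Merging peaks within 1 kb gave 25.4% lost and 30.8% new, promoter-like shares of 79.7%, 22.95%, 79.8% and 58.7% in the same order, widths of 1822 (kept control), 2006 (kept KO) and 988 bp (new), 25.4% and 26.7% in constant A bins, neighbours of 29.3% and 37.7% and top windows of 36.0% and 26.3%. Shares of the classes among merged loci were not computed either. The wider 50% of peaks gave 10.4% and 13.1%. H3K4me3 within 1 kb gave promoter-like shares of 79.1%, 27.3%, 78.9% and 59.4%, and H3K4me3 of either genotype 80.8%, 23.6%, 81.0% and 57.3%. Leaving out bins with scores near 0 gave 27.1% new in constant A, 42.6% lost in A-to-B, 5.64% lost and 79.5% new in B-to-A, and 31.5% lost and 58.3% new in constant B bins. TADs in place of windows gave 44.0% and 36.5%. Requiring 50% cover gave 1.99% (H3K27me3) and 12.9% (H3K9me3) of new peaks on the control lists. Without chromosomes 2 and 12, chosen after seeing the data, 26.1% were lost.

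A net change of at least 5 peaks gave 16.8% of net-loss bins called lower and 13.0% of net-gain bins called lower. Leaving out 1 Hi-C library at a time, net-gain bins called higher ranged from 33.1 to 39.3% and lower from 12.7 to 18.1%, and net-loss bins called lower from 17.6 to 23.9% and higher from 7.07 to 12.6%; a genotype left with 1 library was assumed to vary like the other. Deviations of control and KO libraries with the same replicate number correlated weakly (RNA 0.11, 0.064 and 0.047, Hi-C -0.0018). These correlations run over all genes or bins and cannot show that no gene or bin was paired. With a replicate block, 40.3% of net-gain bins were called higher and 24.3% of net-loss bins lower, and 32 genes of the lists rose and 19 fell. For the values that moved, the cause was not tested.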
